A study of Mus musculus with 73 samples.

Results

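This comparison set mammary tumors from 2 mouse models that lose the tumor suppressor p53 against each other, 9 of the 73 arrays of the series. The p53 null tumors carry the label p53-/-;transplant, come from Balb/c mice and cover 5 arrays. The p53 floxed tumors carry the label p53fp/fp;WAP-cre, come from C57BL6/129sv mice and cover 4 arrays. Arrays were chosen by these labels alone. On every one of the 9 arrays RNA of a mammary tumor, labelled with Cy5, was hybridised against RNA of wild-type normal mammary gland of the same strain, labelled with Cy3. No other treatment or age is given. In p53 floxed mice the gene is removed by a Cre recombinase under the Wap promoter, which is active in secretory mammary epithelium, so p53 is lost in those cells and not in the rest of the animal. In the other model both copies are absent from the p53-/- cells. The labels do not say which tissue was transplanted or the genotype of the host, and the share of host cells in those tumors is unknown here. Strain, way of losing p53 and transplantation change together between the models and cannot be told apart. The normal gland on the Cy3 channel differs in strain too, so a difference between models can lie in the tumors or in the normal glands. Dyes were not swapped, and a dye bias common to all arrays drops out of the difference between models but not out of the change against normal gland. Whether the samples of a model are from different animals is not labelled, so p-values rest on a spread between samples that may be technical. That spread is estimated for each gene over 38 arrays of tumor against normal gland from 8 models, these 9 among them. The SE of a difference therefore does not follow the SD of the 2 p53 models alone.

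p53 is a transcription factor that is stabilised after DNA damage and oncogene activity. It switches on genes that hold the cell cycle (Cdkn1a), end the response (Mdm2) or start cell death. Mammary tumors that lack it are known to vary in lineage, with luminal, basal keratin-bearing and spindle-shaped tumors in the same model. Trp53 itself and Mdm2 were not analysed here, so the loss of p53 could not be checked on these arrays.

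All values are log2 ratios of tumor over normal gland, each array centred on its median, so 1 is a doubling and 0 is the median feature. Arrays held values for 7657 to 7934 features in p53 null tumors and for 7086 to 7859 in p53 floxed tumors. The files hold no intensities, and the number of arrays limits the precision. Values were packed closer around 0 in the transplant model: the median absolute deviation over features was 0.186 to 0.317 on the p53 null arrays and 0.319 to 0.343 on the p53 floxed arrays. The standard deviation between arrays of a model had a median over genes of 0.227 in p53 null and 0.305 in p53 floxed tumors. Across 4617 genes with a value on all 9 arrays, Pearson's r between pairs of arrays was 0.567 to 0.832 within p53 null, 0.534 to 0.741 within p53 floxed and 0.406 to 0.748 between models, so the ranges overlapped. The lowest mean correlation with arrays of the own model was 0.61 for p53 null array 3 and 0.578 for p53 floxed array 1. Both were the lowest of their models in Epcam, Cdh1 and Gata3, as described with the epithelial genes, but not in Krt5. The array numbers in the labels fall into separate runs for the models: the 4 p53 floxed arrays form 1 run, and the p53 null arrays form a run of 3 and a run of 2. No run holds both models, so whatever a run shares cannot be told apart from the model.

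Changes against normal gland were correlated between the models, and few single genes separated them. Over the 5768 genes tested, the mean change of p53 null tumors and that of p53 floxed tumors had correlations of r = 0.811 by Pearson and rho = 0.673 by Spearman (genes are not independent replicates). Against normal gland 1197 genes changed in p53 null tumors (20.8%), 557 of them higher (9.66%) and 640 lower (11.1%). In p53 floxed tumors 1678 changed (29.1%), 1039 higher (18.0%) and 639 lower (11.1%). These tests set each model's arrays against 0, and the spread of normal gland does not enter. The order of the totals turned with the scaling: 2275 genes in p53 null and 1834 in p53 floxed tumors passed with arrays scaled to 1 spread, and 2154 and 1768 in the same order after quantile normalization. Genes that changed in both models went the same way in 762 cases and opposite ways in 2, Cap1 and Ccrl2.

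Between the models 16 of the 5768 genes differed at a Benjamini-Hochberg adjusted p under 0.05 in limma's moderated test (0.277%), 4 higher in p53 null tumors (0.0693%) and 12 lower (0.208%). Of these, 14 differed at least 2-fold (0.243%). At an unadjusted p under 0.05 the counts were 197 higher (3.42%) and 623 lower (10.8%), and the median difference over all genes was -0.06. Among the 12 lower genes, 11 were above normal gland in p53 floxed tumors by their own test, and 1 of the 12, Pfn2, had changed against normal gland in p53 null tumors, where it fell. The number and direction of calls followed the scaling of the arrays: quantile normalization gave 74 genes, 46 higher and 28 lower, and arrays scaled to 1 spread gave 202 genes, 63 higher and 139 lower. The number also moved with single arrays, from 5 genes without p53 floxed array 2 to 47 without p53 floxed array 1. Ly6e, Cap1, Nubp1 and Erdr1 passed without each of the 9 arrays in turn, and the other 12 genes lost the call without at least 1 of them. Those fits still took the spread from the arrays of the other models too. Fitted on the 9 arrays alone, 11 genes passed, 5 of them among the 16. They were Ly6e, Cap1, Nubp1, S100a6 and Cbfb, and Erdr1 did not pass. With the runs of array numbers as a random block 2 genes passed, Ly6e and Cap1.

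**Figure D1:**
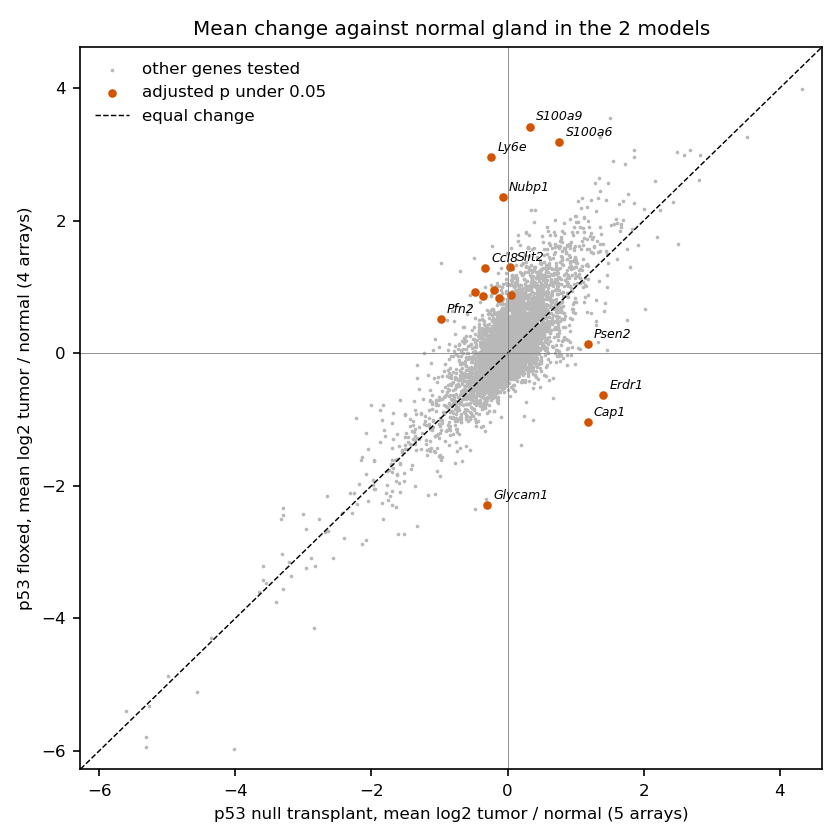
Mean log2 tumor over normal gland of each of 5768 genes in p53 null transplant tumors (horizontal axis, 5 arrays) and in p53 floxed tumors (vertical axis, 4 arrays), with the line of equal change dashed. The 16 genes that differed at an adjusted p under 0.05 are coloured, 4 below the line and 12 above it, and 5 crowded points are left without a name.

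Cap1, a cyclase-associated protein that speeds the turnover of actin filaments, was higher in p53 null tumors. It stood at 1.61, 0.97, 1.22, 0.75 and 1.35 on the p53 null arrays, against -1.13, -1.29, -0.79 and -0.93 on the p53 floxed arrays. All p53 null arrays were above normal gland and all p53 floxed arrays below it. The difference was 2.21 ± 0.37 (SE; adjusted p = 0.00214), or 4.63-fold. Both changes against normal gland passed on their own (adjusted p = 0.00049 for p53 null and 0.0040 for p53 floxed).

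Erdr1, named as an erythroid differentiation regulator, was also higher in p53 null tumors. It had 0.37, 1.17, 2.00, 1.83 and 1.64 in p53 null tumors, against -0.84, -0.33, 0.15 and -1.52 in p53 floxed tumors. The groups did not overlap, with p53 null array 1 and p53 floxed array 3 nearest to each other, and the difference was 2.03 ± 0.36 (SE; adjusted p = 0.00335). Glycam1, a mucin-like glycoprotein of secretory mammary epithelium, stood at -1.14, -0.43, -0.13, 0.37 and -0.16 in p53 null tumors, against -1.90, -2.44, -1.18 and -3.64 in p53 floxed tumors. The groups lay next to each other without overlap, since the lowest p53 null array and the highest p53 floxed array were close, and the difference was 1.99 ± 0.46 (SE; adjusted p = 0.0414). Against normal gland the p53 null mean of Glycam1, -0.30, did not pass, and Glycam1 fell in p53 floxed tumors. Psen2, a catalytic subunit of gamma-secretase, had 0.73, 1.13, 1.48, 1.22 and 1.31 in p53 null tumors, against 0.22, 0.74 and -0.56 on the 3 p53 floxed arrays with a value. One p53 floxed array reached the lowest p53 null array, and the difference was 1.04 ± 0.23 (SE; adjusted p = 0.0375).

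Ly6e, a surface protein anchored by a lipid and induced by interferon, gave the largest of the 16 differences and was lower in p53 null tumors. It had 0.87, -0.70, -0.91 and -0.22 on the 4 p53 null arrays with a value, against 2.41, 2.99, 3.65 and 2.80 on the p53 floxed arrays. The groups were separate, and the difference was -3.20 ± 0.49 (SE; adjusted p = 0.00099), so Ly6e was 9.21-fold higher in p53 floxed tumors. Nubp1, an assembly factor of iron-sulfur clusters in the cytosol, went the same way. It had 0.68, -0.49, -0.36, -0.07 and -0.12 in p53 null tumors, against 1.84, 2.44, 3.05 and 2.07 in p53 floxed tumors, with no overlap. The difference of Nubp1 was -2.42 ± 0.43 (SE; adjusted p = 0.00335). In both genes p53 null array 1 was the highest array of its model and p53 floxed array 3 the highest of the other.

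**Figure D2:**
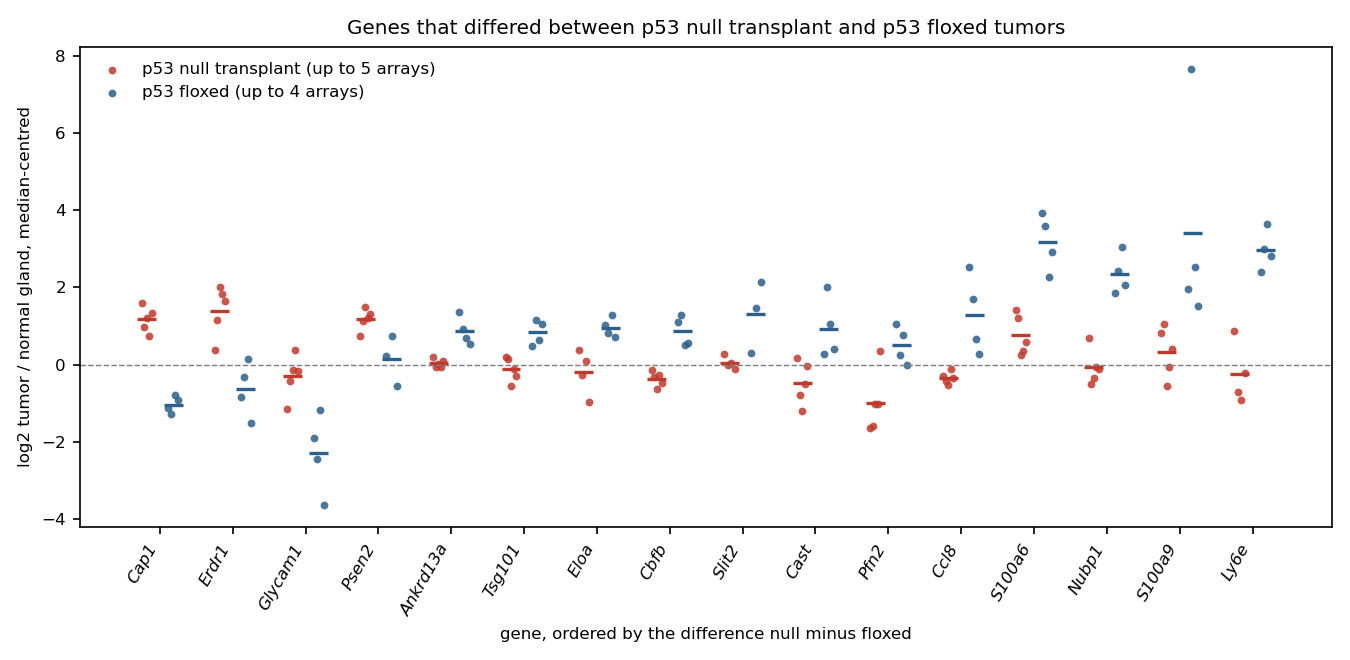
Log2 tumor over normal gland (vertical axis) on each array for the 16 genes that differed, with p53 null transplant arrays in red on the left and p53 floxed arrays in blue on the right of each gene, and bars at the group means. Cap1, Erdr1, Glycam1 and Psen2 stand higher in p53 null tumors, and the other 12 genes stand lower, with 1 p53 floxed array of S100a9 at 7.66.

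A pair of calcium-binding S100 proteins and a chemokine were lower in p53 null tumors. S100a6, which is common in growing and stromal cells, had 1.42, 1.22, 0.25, 0.35 and 0.58 in p53 null tumors, against 3.93, 3.60, 2.27 and 2.93 in p53 floxed tumors. The groups were separate, and S100a6 differed by -2.42 ± 0.46 (SE; adjusted p = 0.0061). S100a9, a subunit of calprotectin carried in bulk by neutrophils and monocytes, had 0.82, 1.04, -0.56, -0.05 and 0.41 in p53 null tumors, against 1.96, 7.66, 2.52 and 1.53 in p53 floxed tumors. Every p53 floxed array was above every p53 null array, but array 2 stood far above the other p53 floxed arrays. The difference of S100a9 was -3.09 ± 0.68 (SE; adjusted p = 0.0375), and without p53 floxed array 2 it was -1.67 (adjusted p = 0.10) and no longer passed. Ccl8, a chemokine that draws monocytes, had -0.29, -0.41, -0.52, -0.11 and -0.34 in p53 null tumors, against 2.52, 1.71, 0.65 and 0.27 in p53 floxed tumors. All p53 null arrays were below normal gland and all p53 floxed arrays above it, a difference of -1.62 ± 0.31 (SE; adjusted p = 0.0061).

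Smaller differences in the same direction came from genes of protein sorting, proteolysis and transcription. Tsg101, a subunit of the ESCRT-I complex that sorts ubiquitinated membrane proteins, had 0.20, 0.14, -0.55, -0.10 and -0.30 in p53 null tumors, against 0.49, 1.15, 0.64 and 1.05 in p53 floxed tumors (difference -0.96 ± 0.20, SE; adjusted p = 0.0287). Cbfb, the partner subunit of the Runx transcription factors, had -0.12, -0.31, -0.63, -0.28 and -0.46 in p53 null tumors, against 1.11, 1.29, 0.50 and 0.57 in p53 floxed tumors (difference -1.23 ± 0.28, SE; adjusted p = 0.0382). In both genes the arrays of the models were apart, and for Cbfb they lay on opposite sides of 0. Cast encodes calpastatin, the inhibitor of the calpain proteases, and had 0.18, -0.79, -1.20, -0.51 and -0.03 in p53 null tumors, against 0.27, 2.00, 1.05 and 0.40 in p53 floxed tumors (difference -1.40 ± 0.32, SE; adjusted p = 0.0414). Ankrd13a, a ubiquitin-binding protein, stayed near normal gland in p53 null tumors at 0.21, -0.06, 0.02, -0.05 and 0.11, against 1.37, 0.92, 0.70 and 0.52 in p53 floxed tumors (difference -0.83 ± 0.19, SE; adjusted p = 0.0414). Both genes kept their groups apart, Cast only narrowly.

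Slit2, Pfn2 and Eloa also passed and are named after their values were seen, as are Ly6e and Psen2 above. Slit2, a secreted ligand of the Robo receptors, had 0.27, -0.01, 0.03 and -0.12 on 4 p53 null arrays, against 0.30, 1.47 and 2.14 on 3 p53 floxed arrays (difference -1.26 ± 0.28, SE; adjusted p = 0.0375). Pfn2, a profilin that binds actin monomers, had -1.65, -1.59, -1.01, -1.01 and 0.36 in p53 null tumors, against 1.05, 0.24, 0.76 and -0.01 in p53 floxed tumors (difference -1.49 ± 0.33, SE; adjusted p = 0.0375). Its p53 null array 5 lay inside the range of the p53 floxed arrays. Eloa, elongin A of the transcription elongation machinery, averaged -0.19 ± 0.58 on 4 p53 null arrays and 0.96 ± 0.26 on 4 p53 floxed arrays (SD; difference -1.15 ± 0.26, SE; adjusted p = 0.0419). Of the 16 genes, 14 had arrays that did not overlap between models. Of these 16, 12 held a value on all 9 arrays, and 11 of the 12 had none overlapping. Among all 4617 genes with a value on all 9 arrays, 371 had none overlapping (8.04%). The 16 were picked by a test of the same difference, so their count is no further support. Just outside the threshold were Lamtor3 at -0.88 and 2210408F21Rik at 0.89, with adjusted p of 0.0506 and 0.0525.

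The 6 other tumor models of the series, also direct arrays of tumor over normal gland, place these genes against a wider range. They are Brca1 Co/Co;MMTV-cre;p53 tumors in C57BL6/129sv mice (5 arrays) and 5 models in FVB mice: MMTV-PyMT, MMTV-ras, MMTV-myc, MMTV-her2/neu and C3(1)/SV40 T/t-antigen (4 or 5 arrays each). Ly6e averaged -0.24 ± 0.79 in p53 null tumors (SD, n = 4) and 2.96 ± 0.52 in p53 floxed tumors (n = 4), while the means of the 6 other models ran between 1.63 and 2.90. Nubp1 averaged -0.07 ± 0.45 in p53 null tumors (n = 5) and 2.35 ± 0.53 in p53 floxed tumors (n = 4), beside 1.06 to 2.14 in the others. In these genes the p53 null mean lay well below all 6 and the p53 floxed mean a little above them. Cap1 showed the reverse, with p53 floxed tumors apart: 1.18 ± 0.33 in p53 null tumors (n = 5) and -1.03 ± 0.22 in p53 floxed tumors (n = 4), beside 0.62 to 1.55 in the others. Psen2 was high in p53 null tumors alone by its means, 1.17 ± 0.28 in p53 null (n = 5) and 0.14 ± 0.66 in p53 floxed tumors (n = 3), beside -0.20 to 0.27.

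S100a6 and S100a9 ran high in more than 1 model. S100a6 averaged 0.76 ± 0.53 in p53 null (n = 5) and 3.18 ± 0.74 in p53 floxed tumors (n = 4), beside 2.56 in the Brca1 model, 2.12 in the SV40 T/t-antigen model and -0.67 to -0.12 in the 4 other FVB models. S100a9 averaged 0.33 ± 0.65 in p53 null (n = 5) and 3.42 ± 2.86 in p53 floxed tumors (n = 4), beside 2.50 in the Brca1 model and -0.27 to 0.28 in the FVB models. The Brca1 model shares its strain with the p53 floxed model, and its label names p53 too. Set against it, p53 null tumors were lower, with a difference of -1.79 in S100a6 (adjusted p = 0.0036) and -2.17 in S100a9 (adjusted p = 0.017), while p53 floxed tumors differed by 0.63 (adjusted p = 0.39) and 0.92 (adjusted p = 0.39). These contrasts share arrays with the comparison of the p53 models. Erdr1 averaged 1.40 ± 0.65 in p53 null tumors, against -0.63 ± 0.71 in p53 floxed tumors and -0.49 ± 0.55 in the Brca1 model (SD), and p53 null minus Brca1 was 1.89 (adjusted p = 0.00021). In Cap1, Slit2 and Tsg101 it was the p53 floxed tumors that differed from the Brca1 model in limma. For these genes p53 floxed minus Brca1 was -2.37 (adjusted p = 5.1e-05), 1.15 (adjusted p = 0.0041) and 0.64 (adjusted p = 0.031). In the same order p53 null minus Brca1 was -0.15, -0.11 and -0.32 (adjusted p = 0.80, 0.79 and 0.26). Across all genes 1021 differed between p53 null tumors and the Brca1 model (17.7%) and 764 between p53 floxed tumors and the Brca1 model (13.2%).

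**Figure D3:**
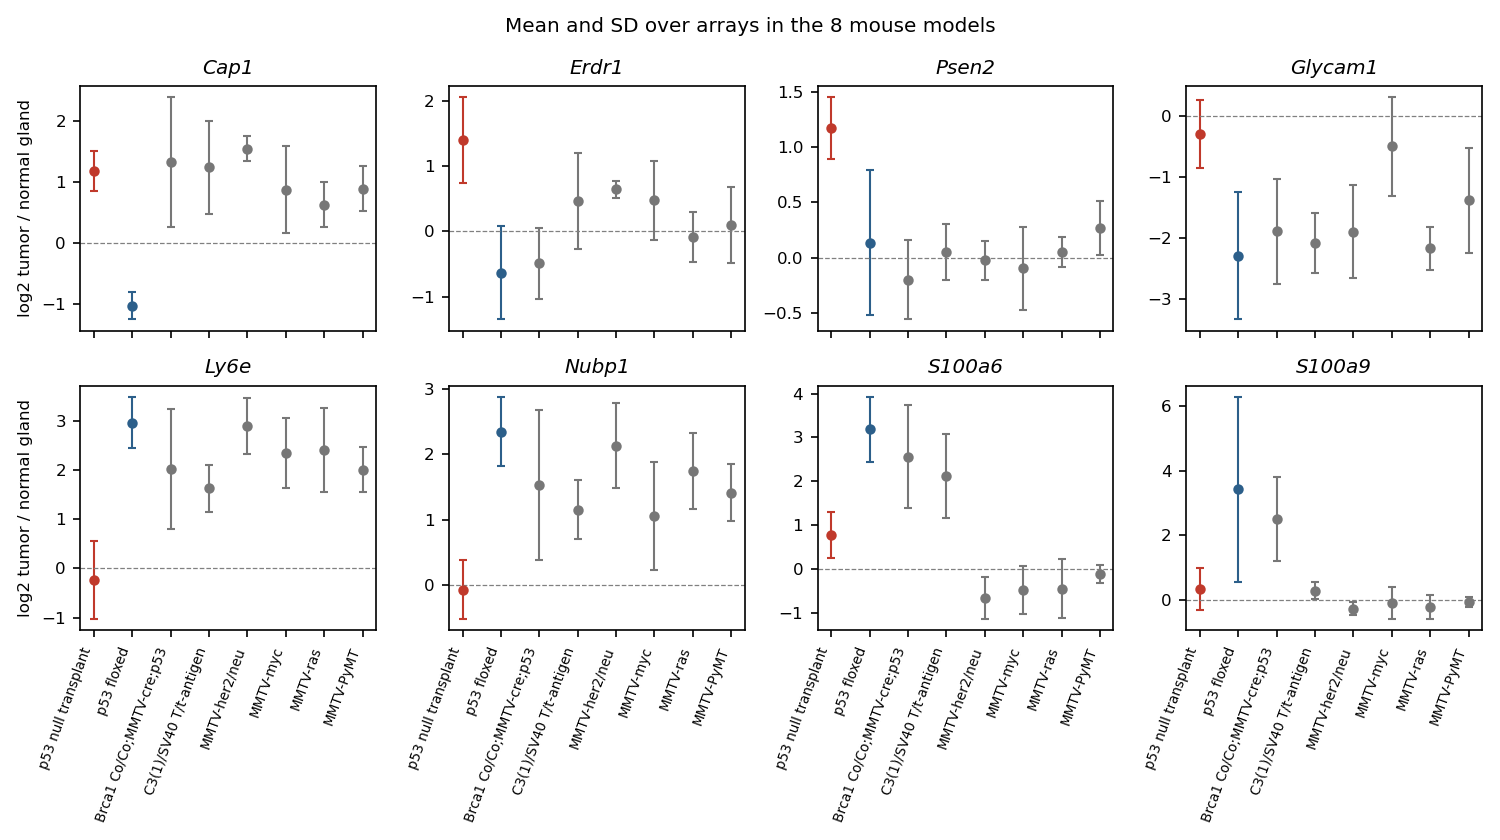
Mean log2 tumor over normal gland (vertical axes) with SD over arrays in each of 8 mouse models, p53 null transplant in red, p53 floxed in blue and the other models in grey, for 8 genes that differed between the p53 models. Ly6e and Nubp1 are lowest in p53 null tumors, and Cap1 lies below 0 in p53 floxed tumors alone. S100a6 and S100a9 are high in p53 floxed and Brca1 model tumors, and S100a6 also in the SV40 T/t-antigen model.

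No p53 target passed between the models. None of the 16 measured members of a list of 35 p53 targets passed in limma, 3 had an unadjusted p under 0.05 (Ccng1 higher, Cdkn1a and Gadd45a lower in p53 null tumors, beside 3.42% and 10.8% of all genes), and the list's median difference was 0.15 against -0.06 over all genes. Cdkn1a, the inhibitor of cyclin-dependent kinases known as p21, had 0.20, 0.06, -0.23, -0.29 and -0.20 in p53 null tumors, against 2.19, 2.62, 0.43 and -0.12 in p53 floxed tumors. The p53 null arrays all lay near normal gland, whereas p53 floxed arrays 1 and 2 were high and array 4 overlapped the p53 null arrays, and the difference of -1.37 ± 0.49 (SE) did not pass (adjusted p = 0.183). Ccng1, cyclin G1, had -1.02, -1.20, -1.04, -1.59 and -0.15 in p53 null tumors, against -2.32, -1.33, -1.45 and -2.33 in p53 floxed tumors. Ccng1 fell against normal gland in both models (adjusted p = 0.0050 in p53 null and 8.3e-06 in p53 floxed), and its difference of 0.86 ± 0.39 (SE) did not pass (adjusted p = 0.307). The mean of Ccng1 was -3.65 in the Brca1 model, -1.35 in the SV40 T/t-antigen model and -0.34 to 0.77 in the 4 other FVB models. Gadd45a, a stress-induced growth arrest gene, averaged 0.47 ± 0.34 in p53 null and 1.09 ± 0.57 in p53 floxed tumors (SD, adjusted p of the difference = 0.343), and Trp53inp1, a p53-induced nuclear protein, averaged -0.27 ± 0.29 and -0.46 ± 0.98 in the same order (adjusted p = 0.881).

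Part of the proliferation genes rose against normal gland. Of 31 mitosis genes measured, 12 rose against normal gland in p53 null tumors (9.66% of all genes did) and 18 in p53 floxed tumors (18.0% of all genes), and none fell in either. Between the models 0 of 31 passed in limma. At an unadjusted p under 0.05, 1 was higher and 3 were lower in p53 null tumors, beside 3.42% and 10.8% of all genes. The list's median difference of -0.18 turned to 0.01 under quantile normalization. Mki67, the proliferation marker Ki-67, averaged 0.42 ± 0.26 in p53 null tumors (n = 5) and 0.58 ± 0.40 in p53 floxed tumors (SD, n = 3). Top2a, the topoisomerase of dividing cells, had 1.96, 1.26, -0.06, -0.26 and 0.05 in p53 null tumors, against 1.00, -0.04, 3.17 and 1.14 in p53 floxed tumors, and the SD within each model, 0.97 and 1.35, was larger than the difference of -0.73 ± 0.52 (SE; adjusted p = 0.558). Of 27 genes of DNA replication, 5 rose against normal gland in p53 null and 14 in p53 floxed tumors. Between the models 24 of the 27 stood lower in p53 null tumors (56.9% of all genes did), 6 at an unadjusted p under 0.05 (10.8% of all genes) and 0 past the adjusted threshold in limma. Their median difference was -0.37, -0.21 after quantile normalization and -0.24 with arrays scaled to 1 spread. Examples chosen after their values were seen are Gmnn, the inhibitor of replication licensing, at -0.93 (adjusted p = 0.16), and Rrm1, a subunit of ribonucleotide reductase, which rose against normal gland at 1.29 in p53 null and 2.15 in p53 floxed tumors.

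Of the growth regulators, Myc, a transcription factor of growth, rose against normal gland in both models, at 0.75 ± 0.21 in p53 null tumors (SD, n = 5) and 1.21 ± 0.25 in p53 floxed tumors (n = 4), with a difference of -0.46 ± 0.24 (SE; adjusted p = 0.39). Ccnd1, cyclin D1, also rose in both, at 0.83 ± 0.59 in p53 null and 1.81 ± 0.55 in p53 floxed tumors (SD), and its difference of -0.98 ± 0.43 (SE) did not pass (adjusted p = 0.29). Egfr, the epidermal growth factor receptor, averaged 0.35 ± 0.15 in p53 null and 0.01 ± 0.23 in p53 floxed tumors (SD; adjusted p of the difference = 0.471). Rb1, the retinoblastoma protein, averaged -0.37 ± 0.15 and -0.39 ± 0.30 in the same order (adjusted p = 0.979), and was -1.29 in the Brca1 model. Brca1, a DNA repair gene, averaged -0.07 ± 0.20 on 5 p53 null arrays and -0.11 ± 0.14 on 3 p53 floxed arrays (SD; adjusted p = 0.98).

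In 4 epithelial genes the SD between arrays of each model was larger than the difference between the models. Krt8, a keratin of luminal cells, had 1.94, 2.35, -2.04, 2.63 and 1.50 in p53 null tumors, against 1.69, 0.74, 4.33 and 3.53 in p53 floxed tumors (difference -1.30 ± 0.68, SE; adjusted p = 0.391). Epcam, an adhesion molecule of epithelial cells, had 0.59, 1.37, -0.37, 1.98 and 1.53 in p53 null tumors, against -2.18, 2.92, 3.69 and 2.89 in p53 floxed tumors (difference -0.81 ± 0.86, SE; adjusted p = 0.701). Array 3 of the p53 null model was thus lowest in both genes, and array 1 of the p53 floxed model was the one far below the others in Epcam. Cdh1, E-cadherin, followed with 1.11, 2.00, -0.26, 0.38 and 0.42 in p53 null tumors, against -1.04, -0.08, 2.02 and 0.97 in p53 floxed tumors. Gata3, a luminal transcription factor, had 0.14, 0.19, -0.49, 0.80 and 0.07 in p53 null tumors, against -1.85, 0.10, 0.45 and 0.46 in p53 floxed tumors. Again p53 null array 3 and p53 floxed array 1 were the lowest of their models, and neither gene passed (adjusted p = 0.846 for Cdh1 and 0.683 for Gata3). The junction list as a whole had a median on single arrays of -0.17 to 1.37 in p53 null and -0.33 to 2.10 in p53 floxed tumors over 12 genes. No member passed in limma, and 1 was lower in p53 null tumors at an unadjusted p under 0.05 (10.8% of all genes were). Leaving out p53 null array 3 and p53 floxed array 1 gave 27 genes that differed between the models in place of 16, of which 8 were among the 16.

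Basal keratins were high on single arrays. Krt5, a keratin of basal and myoepithelial cells, had -0.46, -0.69, 2.10, -0.74 and 0.80 in p53 null tumors, against 0.44, 4.03, -0.13 and -0.97 in p53 floxed tumors (difference -0.64 ± 0.65, SE; adjusted p = 0.686). Krt6a and Krt17, keratins of stressed or stratified epithelium chosen after their values were seen, stood at 5.25 and 4.36 on p53 floxed array 2. The other p53 floxed arrays had -0.35 to 1.08 for Krt6a and 0.07 to 1.61 for Krt17, and the p53 null arrays had -1.19 to -0.08 and -0.49 to 0.78. The array with these keratins is also the one with S100a9 at 7.66, and the part of either in the other was not tested. Over 22 basal and myoepithelial genes the median difference was 0.05, 0.20 after quantile normalization and -0.21 without p53 null array 3 and p53 floxed array 1. Of these genes 11 were higher and 11 lower in p53 null tumors (56.9% of all genes were lower). None was past the threshold in limma, and 2 were lower at an unadjusted p under 0.05 (10.8% of all genes were).

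Milk genes were close to or above normal gland on some p53 null arrays. Csn2, the milk protein beta-casein, had -2.45, -0.47, 0.03, 2.25 and -1.75 in p53 null tumors, against -2.66, -3.31, -1.10 and -2.35 in p53 floxed tumors. The p53 null arrays were spread widely and overlapped the p53 floxed arrays, and the difference of 1.88 ± 0.82 (SE) did not pass (adjusted p = 0.282). Against normal gland its p53 null mean of -0.48 did not pass, and Csn2 fell in p53 floxed tumors (mean -2.36, adjusted p = 0.0032). Btn1a1, butyrophilin of the milk fat globule and chosen after its values were seen, stood at 0.33 to 0.87 on the p53 null arrays and -1.02 to -0.08 on 3 p53 floxed arrays without passing (adjusted p = 0.209). Xdh, xanthine dehydrogenase of the milk fat globule and also chosen after its values were seen, went the other way at -0.38 to 0.06 on the p53 null arrays and 0.17 to 1.06 on the p53 floxed arrays (difference -0.77 ± 0.29, SE; adjusted p = 0.203). Of 16 luminal and milk genes, Glycam1 alone passed (0.277% of all genes did). In p53 null tumors 11 of the 16 stood higher and 5 lower (56.9% of all genes were lower). At an unadjusted p under 0.05 in limma 3 were higher and 1 was lower, beside 3.42% and 10.8% of all genes. The list's median difference was 0.13, and 0.02 without p53 null array 3 and p53 floxed array 1.

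**Figure D4:**
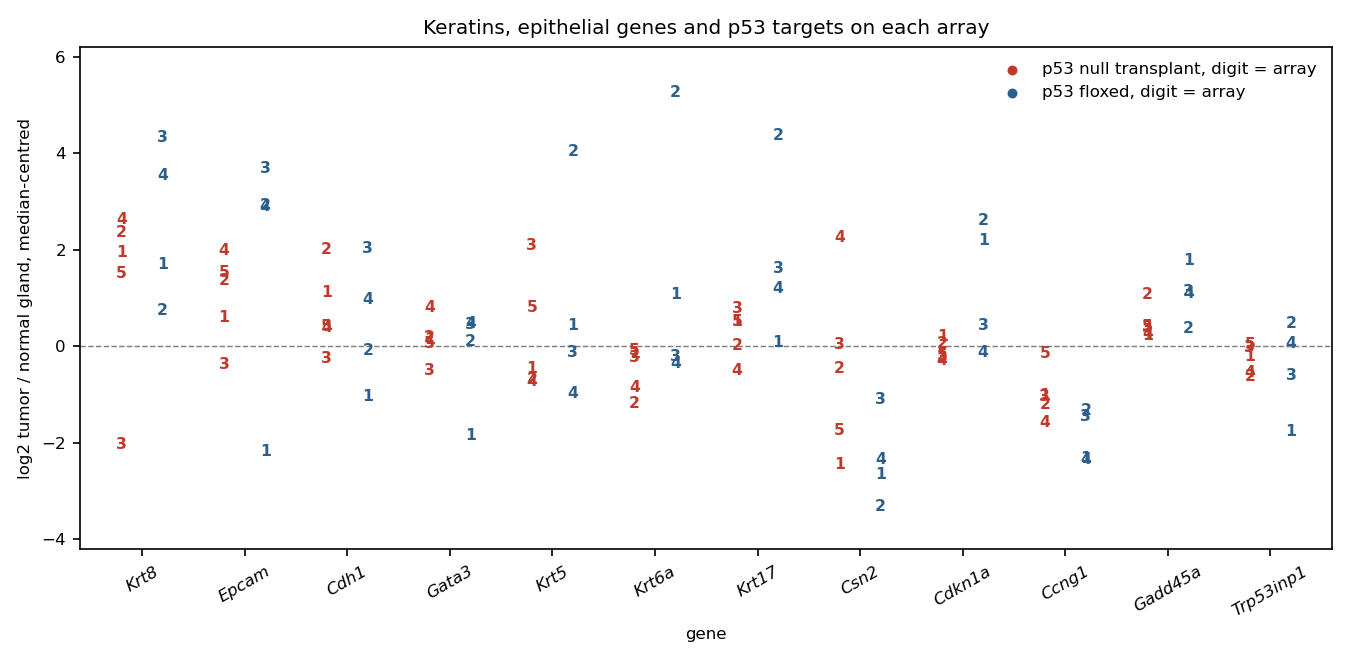
Log2 tumor over normal gland (vertical axis) of keratins, epithelial genes, a casein and p53 targets on each array, written as the array's number in its model, p53 null transplant in red on the left and p53 floxed in blue on the right. Array 3 of p53 null and array 1 of p53 floxed are lowest in Epcam, Cdh1 and Gata3, and p53 floxed array 2 is highest in Krt5, Krt6a and Krt17.

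Of the myeloid, interferon and antigen presentation lists, which do not hold Ly6e, S100a9 was the one gene that passed between the models. In bulk samples such as these, fewer cells of a type and less RNA per cell cannot be told apart. Of 34 macrophage and myeloid genes 29 stood lower in p53 null tumors and 5 higher (56.9% of all genes stood lower), with a median of -0.53 against -0.06 over all genes, 9 lower at an unadjusted p under 0.05 (10.8% of all genes were) and 1, S100a9, past the adjusted threshold. Against normal gland 4 of the 34 rose in p53 null tumors, near the 9.66% of all genes, and 11 in p53 floxed tumors, beside 18.0% of all genes. The median on single arrays was -0.28 to 0.14 in p53 null and 0.16 to 0.70 in p53 floxed tumors, with the nearest arrays almost touching. Examples chosen after their values were seen include Aif1, a calcium-binding protein of macrophages, at -0.07 to 0.50 in p53 null tumors against 0.64 to 1.97 in p53 floxed tumors (adjusted p = 0.104). Lgals3, galectin 3 of macrophages and tumor cells, had 2.75, 1.28, -0.54, 1.50 and 1.78 in p53 null tumors, against 3.88, 3.45, 2.90 and 2.80 in p53 floxed tumors (adjusted p = 0.119).

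Interferon-stimulated genes had a median difference of -0.50 over 21 genes, with 15 lower (56.9% of all genes were), 7 of them at an unadjusted p under 0.05 (10.8% of all genes), and 0 past the adjusted threshold in limma. Their median ran on single arrays from -0.30 to 0.53 in p53 null tumors and from -0.02 to 1.22 in p53 floxed tumors, where arrays 1 and 3 were high and arrays 2 and 4 overlapped the p53 null arrays. Without p53 null array 3 and p53 floxed array 1 the median difference was -0.18. Ifit3, an interferon-induced antiviral protein chosen after its values were seen, had 1.26, 0.57, -1.61, 1.31 and 0.50 in p53 null tumors, against 3.76, 1.80, 3.28 and -0.18 in p53 floxed tumors (adjusted p = 0.129). Of 5 MHC class I genes 4 stood lower in p53 null tumors (median difference -0.60), and of 8 class II genes 5 did (62.5%, median difference -0.40), beside 56.9% of all genes. None of either passed in limma, with 3 of class I and 1 of class II lower at an unadjusted p under 0.05 (10.8% of all genes were). The class II medians on single arrays overlapped between the models. Cd74, the invariant chain of class II, had -1.08, 1.38, -0.40, -0.11 and 1.11 in p53 null tumors, against -0.25, 1.91, 1.95 and 0.51 in p53 floxed tumors and overlapped widely (adjusted p = 0.584). T cell and B cell lists had median differences of 0.02 and 0.00 with no passing gene, over 14 and 11 genes. In each list 1 gene was higher and 1 lower at an unadjusted p under 0.05, beside 3.42% and 10.8% of all genes.

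Ribosomal protein genes stood lower in p53 null tumors in nearly all members, without a gene that passed. Of 21 cytosolic ribosome genes 20 stood lower in p53 null tumors (56.9% of all genes did), with a median of -0.61, 7 lower at an unadjusted p under 0.05 (10.8% of all genes) and 0 past the adjusted threshold in limma. The median on single arrays was 0.01 to 0.42 in p53 null tumors and 0.66 to 1.23 in p53 floxed tumors. The median over all genes was apart as well, just below 0 on every p53 null array and just above it on every p53 floxed array. Against normal gland 3 of 21 rose in p53 null tumors (9.66% of all genes did) and 14 of 21 in p53 floxed tumors (18.0% of all genes). Rps3a1, a protein of the small subunit chosen after its values were seen, had -0.20, 0.03, 0.25, 0.03 and 0.23 in p53 null tumors, against 1.35, 1.11, 1.28 and 0.63 in p53 floxed tumors, with no overlap (adjusted p = 0.20). Values were spread wider on the p53 floxed arrays, and the part of that spread in the differences of these lists was not tested. With arrays scaled to 1 spread the median difference was -0.55 for ribosomal proteins, -0.43 for myeloid genes and -0.36 for interferon-stimulated genes, and under quantile normalization -0.39, -0.31 and -0.27.

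Most fat and skeletal muscle genes of normal gland fell in both models. Of 17 adipocyte genes 14 fell against normal gland in p53 null tumors and 16 in p53 floxed tumors, beside 11.1% of all genes in each. Adipoq, the adipocyte hormone adiponectin, had -3.87, -3.48, -3.12, -3.40 and -2.65 in p53 null tumors, against -3.13, -3.87, -3.55 and -3.70 in p53 floxed tumors, and the models overlapped (adjusted p = 0.814). Over the list 16 of 17 genes stood higher in p53 null tumors, where 56.9% of all genes stood lower, and the median difference was 0.44. At an unadjusted p under 0.05, 4 were higher (3.42% of all genes), and none was past the adjusted threshold in limma. Arrays 3 and 5 of p53 null tumors were the least depleted, with list medians of -0.78 each, against -2.24 to -1.75 in p53 floxed tumors. The list's median difference was 0.18 with arrays scaled to 1 spread and 0.16 without p53 null array 3 and p53 floxed array 1. Lpl, lipoprotein lipase and chosen after its values were seen, had -5.38, -4.07, -0.76, -1.65 and -2.36 in p53 null tumors, against -5.27, -3.95, -3.26 and -4.13 in p53 floxed tumors (adjusted p = 0.318). Skeletal muscle genes fell in 17 of 22 cases in each model. Their median difference was -0.02, and it was -0.68 with arrays scaled to 1 spread. None was past the threshold in limma, and 1 was lower at an unadjusted p under 0.05 (10.8% of all genes were).

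Stromal and matrix genes gave no passing gene either. In the mesenchymal list 16 of 22 genes stood lower in p53 null tumors (56.9% of all genes did), 4 of them at an unadjusted p under 0.05 (10.8% of all genes). Its median difference was -0.36, -0.21 after quantile normalization and -0.20 without p53 null array 3 and p53 floxed array 1. Its leading gene Cd44, a hyaluronan receptor named after its values were seen, had 2.44, 1.84, -0.12, 1.44 and 1.91 in p53 null tumors, against 3.27, 4.04 and 3.33 on 3 p53 floxed arrays. Every p53 floxed array was above every p53 null array, and the difference of -2.04 ± 0.50 (SE) ended just outside the threshold (adjusted p = 0.059). Cd44 rose against normal gland in both models. Col1a1, a chain of type I collagen, had -0.01, -0.76, -1.53, -0.10 and -0.94 in p53 null tumors, against -0.77, 0.47, 1.03 and 0.00 in p53 floxed tumors (adjusted p = 0.461). Of 22 fibroblast and matrix genes 15 stood lower in p53 null tumors (56.9% of all genes did). At an unadjusted p under 0.05 in limma 2 were lower (10.8% of all genes were), and none was past the adjusted threshold. Col18a1, the basement membrane collagen that yields endostatin and was chosen after its values were seen, rose in both models, at 0.99 ± 0.53 in p53 null and 2.06 ± 0.46 in p53 floxed tumors (SD; adjusted p of the difference = 0.083). Endothelial genes had a median difference of 0.02 over 16 genes with none passing and 1 lower at an unadjusted p under 0.05 (10.8% of all genes were).

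**Figure D5:**
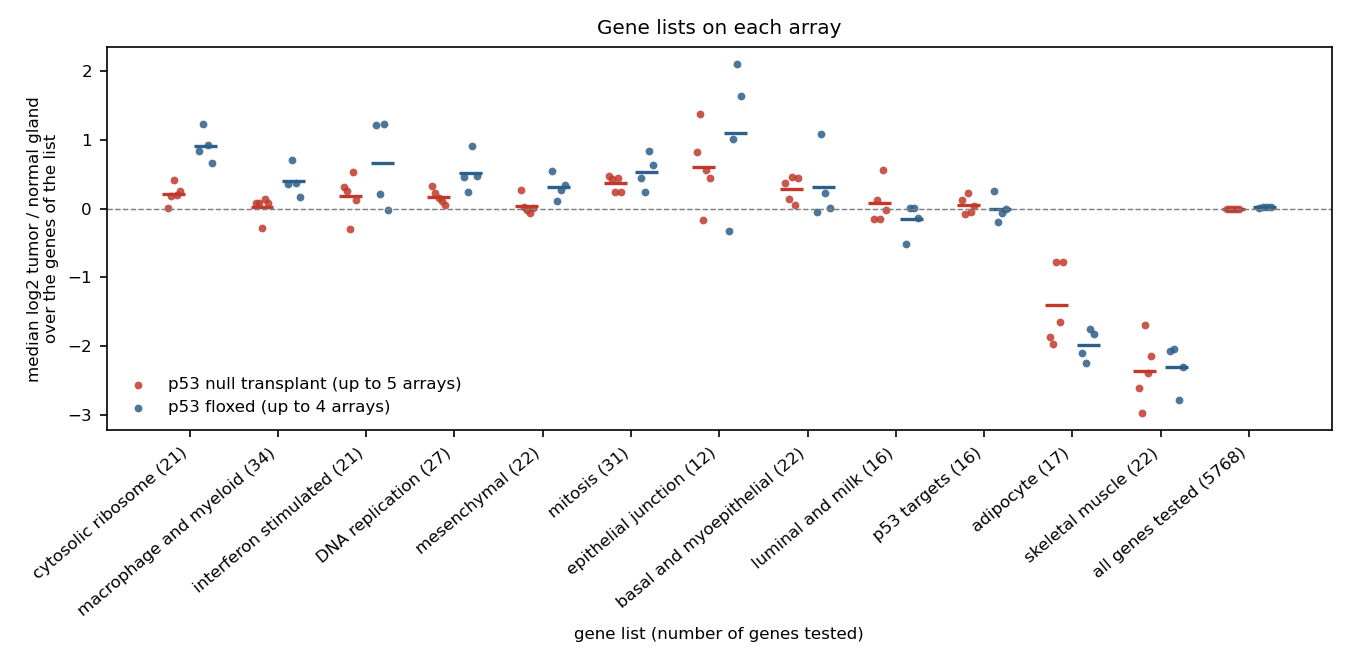
Median log2 tumor over normal gland (vertical axis) of the measured genes of 12 lists and of all genes on each array, p53 null transplant in red on the left and p53 floxed in blue on the right, with bars at the mean of the arrays. Ribosomal protein genes lie at 0.01 to 0.42 in p53 null and 0.66 to 1.23 in p53 floxed tumors, adipocyte and skeletal muscle lists lie far below 0 in both models, and the medians over all genes sit next to 0.

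Of the 33 lists, 31 held no gene that passed between the models. The lists of glutathione and detoxification, Wnt and Notch, and cell cycle entry genes held 24, 24 and 14 genes tested. Of these 62.5%, 58.3% and 57.1% stood lower in p53 null tumors, beside 56.9% of all genes. At an unadjusted p under 0.05 in limma 1, 2 and 0 were higher and 3 of each list lower (3.42% and 10.8% of all genes). Examples of genes not yet described, each chosen after its values were seen, follow, and all stood lower in p53 null tumors. Txn1, thioredoxin, had 0.03, 0.21, -0.40, 0.59 and 0.92 in p53 null tumors, against 1.41, 1.23, 1.36 and 1.18 in p53 floxed tumors, a difference of -1.03 ± 0.28 (SE; adjusted p = 0.083). Its p53 floxed arrays were close together and above all p53 null arrays. Gsto1, a glutathione transferase of the omega class, had 0.10, 0.10, 0.61 and 0.38 on 4 p53 null arrays, against 0.91, 2.37 and 1.49 on 3 p53 floxed arrays (adjusted p = 0.099). Ctnnb1, beta-catenin of Wnt signalling and cell junctions, had 0.74, 0.04, 0.17, 0.10 and 0.92 in p53 null tumors, against 0.37, 4.43, 2.00 and 1.11 in p53 floxed tumors, where array 2 again was the highest (adjusted p = 0.10). Cdk6, a kinase of cell cycle entry, averaged 0.11 ± 0.17 in p53 null and 0.82 ± 0.62 in p53 floxed tumors (SD; adjusted p = 0.082).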

How the data were processed

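RNA of mammary tumor (Cy5) and normal mammary gland (Cy3) was hybridised on 2-colour cDNA arrays. The authors deposited 1 log ratio per feature and array. Neither base nor direction is labelled, and both were checked: read as log2, the series' own interaction rule gave 2638 of 9573 features, the number its text states, and the deposited log2 values were read as tumor over normal because C3(1) Tag arrays of both kinds correlated positively (r = 0.499 across 5755 genes). How spots were scanned, corrected for background and left empty is not given in the sources used here. Array ratios carry no read depth, and the number of arrays sets the precision.

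Each of the 38 direct arrays was centred on its median. Of 9596 features 7486 carry 1 gene symbol, 483 several and 1627 none. Features of 1 gene were averaged, symbols were updated through RefSeq (GRCm38.p6; 7395 matched and 91 kept their name), and 5768 genes with at least 3 values in each p53 model were tested with limma 3.58.1 in R 4.3.3, with 8 model means, moderated tests and Benjamini-Hochberg adjustment over all genes (threshold 0.05). The fit was tested on simulated data. Changes against normal gland set a model's mean against 0.

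Genes were named by a rule: the 12 largest differences each way among passing genes with 9 values and no overlap (11 met it), up to 3 passing genes of each list with at least 2 (none had so many), and 30 chosen genes, of which 19 were measured and 0 passed. Any other gene is said to be chosen after its values were seen. The members and gene lists were chosen with earlier results of these data known. Alternatives covered centring, scaling, filters, the prior, single arrays and blocks, and figures were drawn with matplotlib 3.10.9.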

Additional observations from a re-analysis of the deposited data

Results flagged for a closer look

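On 4 occasions 1 array stood apart from the rest of its model in a named gene, by Dixon's test at the 95% level. S100a9 was at 7.66 on p53 floxed array 2, Krt8 at -2.04 on p53 null array 3, and Epcam at -2.18 and Gata3 at -1.85 on p53 floxed array 1. Among lists, the median of mesenchymal genes stood apart at 0.27 on p53 null array 1 and that of macrophage and myeloid genes at -0.28 on p53 null array 3. In all 82 groups of arrays were tested this way and 6 stood apart, where chance gives about 1 in 20.

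For 3 of the 16 genes that differed, every p53 null array lay on one side of normal gland and every p53 floxed array on the other. The difference of p53 null minus p53 floxed in limma was 2.21 for Cap1 (adjusted p = 0.00214), -1.62 for Ccl8 (adjusted p = 0.0061) and -1.23 for Cbfb (adjusted p = 0.0382).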

How the results depend on the processing

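Of 16 genes that differed between the p53 models, 7 passed on the values as deposited, 74 after quantile normalization (15 of the 16 among them), 2 with runs of array numbers as a random block (correlation 0.193), and, as alternatives chosen after seeing the data, 202 with arrays scaled to 1 spread (all 16 among them) and 27 without p53 null array 3 and p53 floxed array 1 (8 among them). Leaving out 1 array at a time gave 5 to 47 genes, 6 to 19 without a p53 null array, 47 without p53 floxed array 1 and 43 without array 4. On the 9 arrays alone 11 genes passed, 5 of them among the 16. All 16 kept their direction under every alternative that tested them. They were picked by this same difference on the same arrays, so the kept direction is no further support. Deviations from the model means correlated at 0.137, -0.233, -0.238 and 0.0283 between same-numbered arrays of the models. These few values cannot decide whether the shared replicate numbers pair the samples. With the replicate block 1 gene passed, S100a6, on 8 arrays. The genes changed against normal gland in p53 null tumors numbered 2154 after quantile normalization, 2275 scaled to 1 spread, 782 with the random block and 782 to 1225 with 1 array left out, against 1197. The random block gave 956 in p53 floxed tumors, 478 for p53 null minus the Brca1 model and 205 for p53 floxed minus the Brca1 model. The last also gave 277 after quantile normalization, 412 scaled to 1 spread and 508 to 749 with 1 array left out. Other alternatives stayed within 1.5 times, and the cause of these shifts was not tested.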

Other observations

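Features that carry no gene symbol also separated the models. Fitted feature by feature, 48 of 7948 features passed in limma, among them 17 of 1297 with no symbol (10 higher in p53 null tumors and 7 lower) and 1 of 391 with several symbols. They are unnamed here.

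Agr2, a disulfide isomerase of secretory epithelium and a gene of the luminal list, was high on 1 array alone. It had -0.14, 0.49, -1.17, 0.82 and 4.93 in p53 null tumors, against 0.01, -0.16, 1.32 and 1.27 in p53 floxed tumors, and the difference did not pass (adjusted p = 0.818 in limma).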
